A study of Homo sapiens with 4 samples.

Results

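A set of 5 genes of the actin cytoskeleton and of cell adhesion had peaks in the iRIP-seq lists of FSCN1 (fascin) in A549 cells. These were ACTG1, TPM2, PLEC, MRTFA and SRC. They were chosen by having at least 1 peak, on either strand, in either IP replicate, so that the presence, number and tags of their peaks are a description and not a finding. Together they held 12 of the 419 peaks and were 5 of the 121 genes that the lists name. Replicate 1 held 4 of these peaks among its 181 (2.21%), on TPM2 and PLEC, and replicate 2 held 8 among its 238 (3.36%), on ACTG1, SRC, MRTFA and PLEC. Only PLEC had a peak in both replicates, in different exons. Over all protein-coding genes, a peak lay on 47 in replicate 1, on 61 in replicate 2 and on 92 in either. Most of those genes, too, thus had peaks in only 1 replicate. The 12 peaks lay at 8 positions, a position being a region of 50 bp counted once for both strands. Of the 8 positions, 6 contained an exon-intron boundary, 4 carried a peak on each strand, and none was found in both replicates. Over all protein-coding genes with a peak, 51.6% of the positions contained a boundary and 50.8% carried a peak on each strand, and of all peaks 26% in replicate 1 and 19.7% in replicate 2 were shared.

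The series holds 2 FSCN1 immunoprecipitates (IP) and 2 inputs of A549, an established human lung adenocarcinoma line (NSCLC). In iRIP-seq, ultraviolet light crosslinks RNA to protein, the RNA is trimmed, the protein is precipitated and the RNA that comes with it is sequenced. Apart from IP or input, the labels give no difference in genotype or treatment between the samples, except that 1 input is marked as an input plasmid. The labels name a FLAG antibody, as does the study's caption for the western blot of the immunoprecipitates, whereas the methods name an antibody against FSCN1. None of these states whether a tagged FSCN1 was expressed. The labels give the molecule as polyA RNA and do not say whether the replicates came from separate cultures, while the study calls them biological replicates. The methods describe a screen of peaks for their abundance over the input, but the lists carry no fold over input. The inputs were not analysed here, and the samples include no IgG control. From these lists a high level of an RNA in the cell and its recovery with FSCN1 therefore cannot be told apart.

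Fascin binds actin filaments side by side into stiff bundles, which form the core of filopodia and invadopodia, the protrusions with which carcinoma cells migrate and invade. The 5 genes encode a building block of these filaments, proteins that bind them, and regulators that sense actin or signal at adhesions. ACTG1 encodes γ-actin, one of the cytoplasmic actins from which the filaments are built. TPM2 encodes a tropomyosin, a coiled coil that lies along the filament and regulates which other proteins bind it. PLEC encodes plectin, a very large linker between intermediate filaments, actin and hemidesmosomes. MRTFA encodes a coactivator of SRF that is held by monomeric actin and enters the nucleus when actin polymerises, and SRC encodes a tyrosine kinase of focal adhesions.

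The peak regions of ACTG1, TPM2 and SRC are printed to show where the splice site lies in 4 of them, beside the SRC region that lies wholly in an exon. Each is printed from 5′ to 3′ on the strand of the gene, read from GRCh38, with exon bases in capitals and intron bases in lower case.
ACTG1, end of exon 2 (chr17:81512201-81512250, minus strand): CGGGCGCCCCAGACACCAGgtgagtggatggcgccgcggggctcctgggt
ACTG1, end of exon 4 (chr17:81511151-81511200, minus strand): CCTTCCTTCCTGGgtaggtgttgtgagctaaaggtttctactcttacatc
TPM2, end of exon 1 (chr9:35689701-35689750, minus strand): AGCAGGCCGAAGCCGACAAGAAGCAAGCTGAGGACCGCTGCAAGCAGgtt
SRC, start of exon 14 (chr20:37403151-37403200, plus strand): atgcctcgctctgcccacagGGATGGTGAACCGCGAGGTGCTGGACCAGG
SRC, inside exon 13 (chr20:37402801-37402850, plus strand): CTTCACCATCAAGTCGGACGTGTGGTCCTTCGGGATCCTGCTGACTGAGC
The capitals end at a GT in both ACTG1 regions and in the TPM2 region, and they begin after an AG in the SRC region at exon 14. These are the usual first and last bases of an intron.

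The level of a peak was its number of read tags per bin of 50 bp, as the authors deposited it. Tags were not scaled to the size of the library, so that levels were not compared between the lists. The median peak had 9 tags in replicate 1 (range 7 to 151) and 8 tags in replicate 2 (range 6 to 170). All 12 peaks of the 5 genes were a single bin long, and most were at or below the median of their list. Pooled over both lists, in the same way for each group of genes, their median was 7 tags, as it was for ribosomal protein genes, for other protein-coding genes and for all protein-coding genes with a peak. A pooled median depends on how many peaks come from each list, and 7 tags is the lowest value of replicate 1, so that equal medians say little. Their median was 8 tags in replicate 1 (range 7 to 10) and 6 tags in replicate 2 (range 6 to 10). Only 1 of the 4 peaks in replicate 1 and 1 of the 8 in replicate 2 lay above the median of their list, while 2 and 5 of them stood at the lowest value their list contains. Summed over peaks, the mean tags per bin of the 5 genes came to 33 of 2677.33 in replicate 1 and 56 of 4024.33 in replicate 2, sums in which a peak of several bins enters by its mean only. Within each list the exact Poisson 95% intervals of these peaks overlapped one another, and they cover counting error only.

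**Figure D1:**
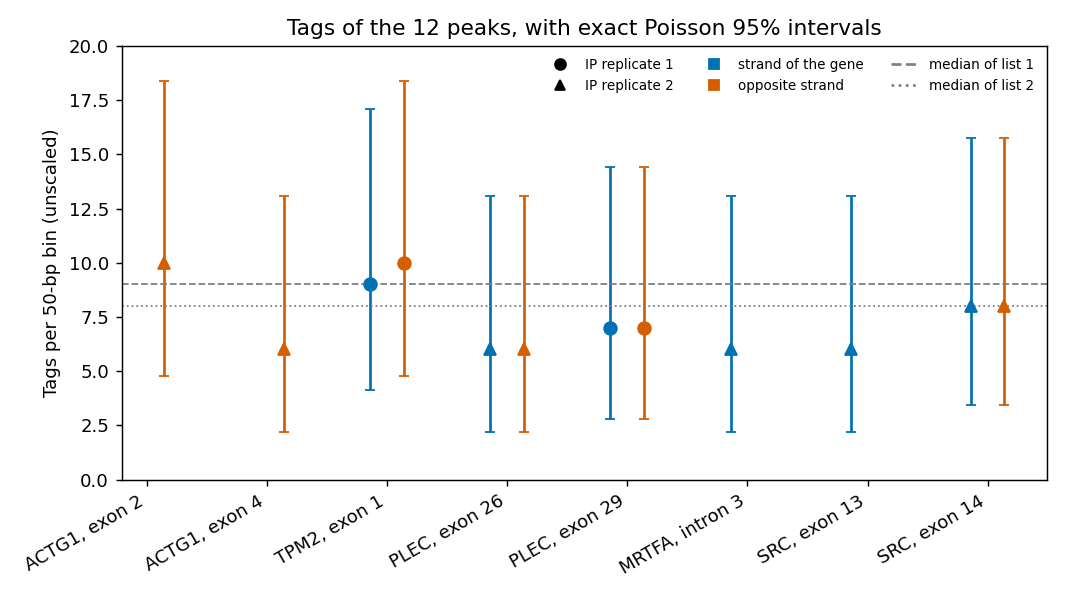
Read tags per 50-bp bin of the 12 peaks (vertical axis, unscaled), with exact Poisson 95% intervals, at the 8 positions (horizontal axis). Circles are IP replicate 1 and triangles IP replicate 2, blue is the strand of the gene and orange the opposite strand, and horizontal lines are the medians of the lists (9 and 8 tags). Only TPM2 and ACTG1 exon 2 reached 10 tags, each on the opposite strand, and no position has both circles and triangles.

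Among the genes of the filament itself, ACTG1 (ENSG00000184009.13, GRCh38 chromosome 17, 81509413 to 81523847, minus strand) had 2 peaks, both in replicate 2 and both antisense to it. The first in the direction of the gene lay at the end of exon 2 of 6, with 10 tags (interval 4.80 to 18.4) and the authors' p-value of 1.34e-09. It was the highest peak of the 5 genes in replicate 2, where 67.2% of the peaks had fewer tags. It held 19 coding bases of exon 2, in codons 35 to 41, and 31 bases of intron 2, which is 89 bp long. The second lay at the end of exon 4, with 6 tags (2.20 to 13.1, p-value 0.00846), which is the minimum of the list, and held 13 coding bases in codons 264 to 268 and 37 bases of intron 4, of 79 bp. The regions were 1000 bases apart on the genome and 666 in the mRNA, with their middles at 20.3% and 57.4% of the span of the transcript. Replicate 1 listed no peak on ACTG1, and no peak in either replicate lay on the strand of its mRNA.

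TPM2 (ENSG00000198467.16, chromosome 9, 35681992 to 35690056, minus strand), the tropomyosin, had its peaks in replicate 1 alone, on both strands of one region. The peak on the strand of the gene had 9 tags (4.12 to 17.1, p-value 3.62e-08), and that on the opposite strand had 10 tags (4.80 to 18.4, p-value 1.24e-08). Of the peaks of replicate 1, 45.9% and 54.1% had fewer tags, so that TPM2 stood close to the middle of that list. The region covered the last 47 bases of exon 1 of 9, in codons 23 to 38, and the first 3 bases of intron 1. Its middle lay 200 bases from the start of the transcript, at 2.85% of its span on the genome, the lowest value among the 8 positions. In the mRNA it lay at 16.7%, above ACTG1 exon 2 (9.69%).

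PLEC (ENSG00000178209.17, chromosome 8, 143915153 to 143976734, minus strand), the linker between filament systems, was the only one of the 5 genes with peaks in both replicates. Among all protein-coding genes, 47 had a peak in replicate 1, 61 in replicate 2 and 92 in either, so that some others had peaks in both as well. In replicate 1 the region from 143926951 to 143927000 had 7 tags on each strand (2.81 to 14.4). It held 24 bases of the end of exon 29 of 32, in codons 1308 to 1315, and 26 bases of intron 29. In replicate 2 the region from 143927851 to 143927900 had 6 tags on each strand (2.20 to 13.1). It held the last 47 bases of exon 26, in codons 1118 to 1133, and 3 bases of intron 26. All 4 peaks stood at the minimum of their lists. The 2 regions were 850 bases apart on the genome and 522 apart in the mRNA, in the stretch of short exons ahead of the long last exons of the gene. The introns beside them were short, with 94 bp for intron 29 and 87 bp for intron 26.

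MRTFA (ENSG00000196588.21, chromosome 22, 40410281 to 40636719, minus strand), the actin-sensitive coactivator, had 1 peak, in replicate 2, on its own strand only. It had 6 tags (2.20 to 13.1) and a p-value of 6.29e-06. It was the only one of the 8 positions without exon bases. It lay inside intron 3, which is 88819 bp long, 38365 bases from the nearest exon and at 59.6% of the span of the transcript.

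SRC (ENSG00000197122.13, chromosome 20, 37344685 to 37406050, plus strand), the kinase of focal adhesions, had 3 peaks, all in replicate 2. The region inside exon 13 of 14 had 6 tags (2.20 to 13.1, p-value 0.00846) on the strand of the gene. It encodes codons 441 to 458, within the kinase domain. The region at the start of exon 14 had 8 tags on either strand (3.45 to 15.8), with sense and antisense p-values of 1.36e-07 and 4.41e-08. It held the last 20 bases of intron 13 and the first 30 of exon 14, in codons 468 to 478. The regions were 300 bases apart on the genome and only 30 bases apart in the mRNA, so that they lay on either side of intron 13, of 290 bp. The regions lay at 94.6% and 95.2% of the span of the transcript on the genome, the highest values among the 8 positions. In the mRNA, where the last exon is long, they lay at 36.8% and 38.3%, below ACTG1 exon 4 (45.2%).

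**Figure D2:**
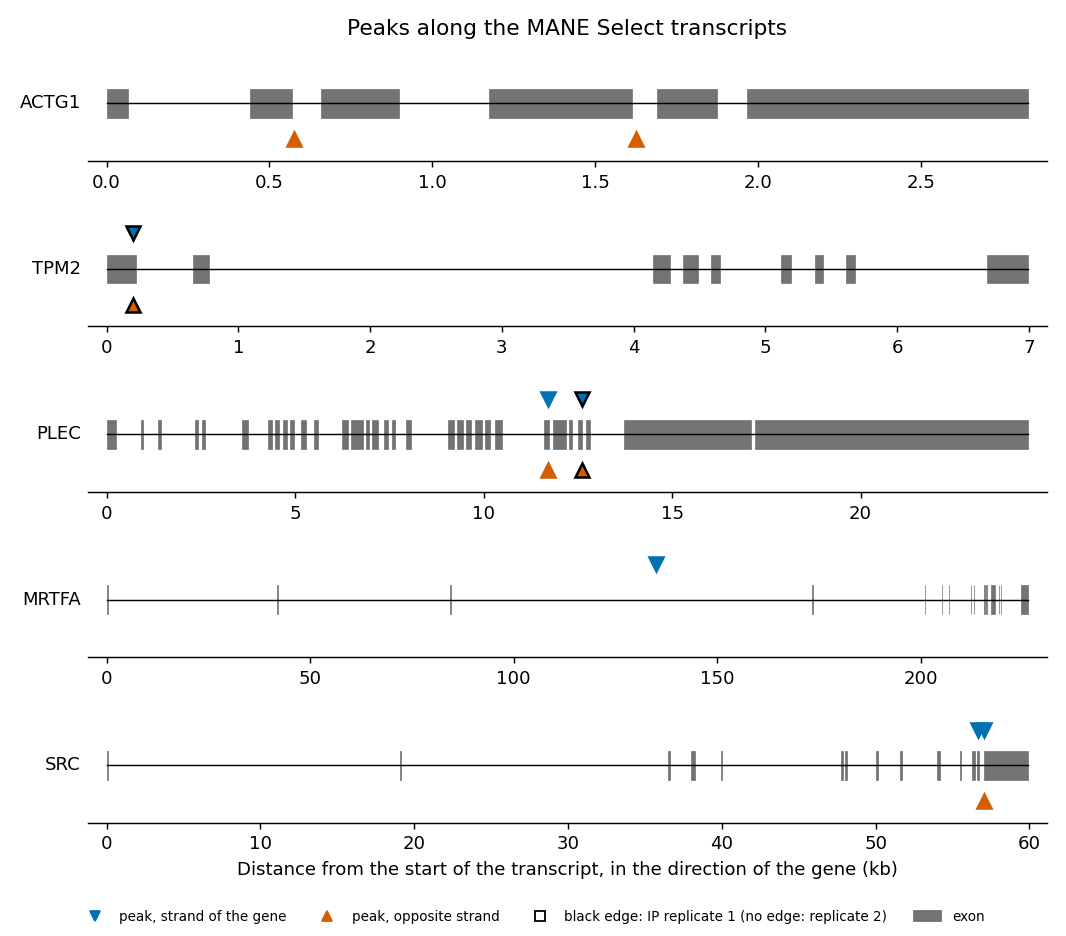
Place of the peaks along the MANE Select transcript of each gene, drawn in the direction of the gene (horizontal axis, distance from the transcript start in kb, a separate scale for each gene). Grey boxes are exons, blue triangles above the line are peaks on the strand of the gene, orange triangles below it are peaks on the opposite strand, and a black edge marks IP replicate 1. ACTG1 has orange triangles only and MRTFA 1 blue triangle in a long intron, while the triangles of SRC crowd at its last exons.

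Of the 8 positions, 6 (75%, Wilson 95% interval 40.9 to 92.9) contained a boundary between an exon and an intron. Of these, 5 were the 5′ end of an intron (ACTG1 exons 2 and 4, TPM2 exon 1, PLEC exons 26 and 29), all with GT, and 1 was the 3′ end of an intron (SRC exon 14), with AG. The share of exon in these regions ranged from 13 bases in ACTG1 exon 4 to 47 bases in TPM2 and PLEC exon 26. Of the 616 bins of the same grid that touch an exon of these transcripts, 139 (22.6%) contain a boundary, from 18.7% in PLEC to 44.1% in TPM2. PLEC holds 327 of these bins. The 75% is not on the same base, because the MRTFA region counts among the 8 positions but touches no exon. Over all 6416 bins of the transcripts, with introns, the share is 2.17%. Over all positions in protein-coding genes of these lists, 65 of 126 (51.6%) contained a boundary, a share inside the interval of the 5 genes. Ribosomal protein genes had 29 of 37 such positions (78.4%, 62.8 to 88.6), close to the share of the 5 genes. Other protein-coding genes had 30 of 81 (37%, 27.3 to 47.9), whose interval overlaps that of the 5 genes, and no test of these differences was made. The 5 genes had 5 boundaries at the start of an intron and 1 at its end, against 16 and 13 in ribosomal protein genes and 20 and 8 in other protein-coding genes, where 2 positions held both kinds.

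**Figure D3:**
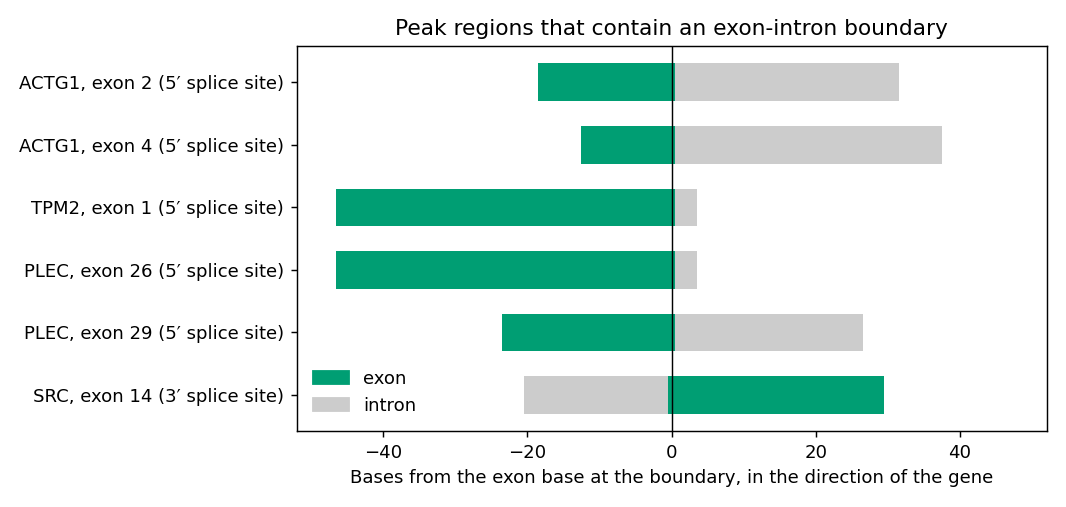
The 6 peak regions that contain an exon-intron boundary, aligned at the boundary (horizontal axis, bases in the direction of the gene). Green is exon and grey is intron, and the axis is centred on the exon base next to the intron. TPM2 and PLEC exon 26 lie almost wholly in the exon, with 3 intron bases each, whereas ACTG1 exon 4 reaches 37 bases into the intron.

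The strand of the peaks was as often opposite to the gene as along it, with 6 of 12 on either (50%, 25.4 to 74.6), beside 53.6% along the gene (46.6 to 60.5) over the peaks of all protein-coding genes. All 4 peaks of replicate 1 and 4 of the 8 of replicate 2 were mirrored, that is, the same bin also held a peak of the other strand. Over all peaks this held for 50.8% in replicate 1 and 50.4% in replicate 2. Of the positions, 4 of 8 (50%) carried a peak on each strand, beside 64 of 126 (50.8%) over all protein-coding genes. At these 4 positions the tags of both strands were equal or differed by 1. In single-bin regions, peaks with equal tags in a list had 1 p-value on the plus strand and another on the minus strand. A peak of 6 tags in replicate 2 had 0.00846 on the plus strand, as in PLEC, ACTG1 and SRC, and 6.29e-06 on the minus strand, as in PLEC and MRTFA. In replicate 1 a peak of 7 tags had 0.00397 and 2.65e-06, as on the strands of PLEC. The p-values of the strands at one position are therefore not on one scale.

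No position of the 5 genes was shared between the replicates. On the same strand 0 of the 4 peaks of replicate 1 were overlapped by a peak of replicate 2 (exact 95% upper limit 60.2%), and 0 of the 8 peaks of replicate 2 by one of replicate 1 (upper limit 36.9%). Over all peaks, 26% of replicate 1 and 19.7% of replicate 2 were overlapped. With so few peaks the limits of the 5 genes include these shares. Without regard to strand, or with peaks within 100 bp counted as shared, the count stayed at 0. ACTG1, MRTFA and SRC had peaks in replicate 2 alone and TPM2 in replicate 1 alone, and each of these calls thus rests on 1 library.

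The 8 regions had a GC content from 46% (ACTG1 exon 4) to 80% (MRTFA), with a median of 63%, beside a median of 60% over positions in protein-coding genes. In ACTG1 the regions lay on either side of the exons of the gene, with 76% at exon 2 and 46% at exon 4 against 54.7% in the exons. The MRTFA region, with 80%, exceeded its exons (61.5%) and its whole gene (43.6%). TPM2 had 60% against 57.7% in its exons, and PLEC had 68% at exon 26 and 60% at exon 29 against 66.8%. SRC had 58% in exon 13 and 66% at exon 14 against 59.3%. In all, 5 of the 8 regions were above the exons of their gene, and the mean difference was 4.16 percentage points, with -2.27 over the 2 positions of replicate 1 and 6.30 over the 6 of replicate 2. All positions in protein-coding genes had a mean difference of 3.57, other protein-coding genes 5.11 and ribosomal protein genes 0.0677. The replicates had no position in common, so that the change of sign is between different positions and cannot be credited to the replicate. The 2 positions of replicate 1 were TPM2 (2.27) and PLEC exon 29 (-6.81). The largest differences came from ACTG1 exon 2 (21.3) and MRTFA (18.5), both in replicate 2.

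**Figure D4:**
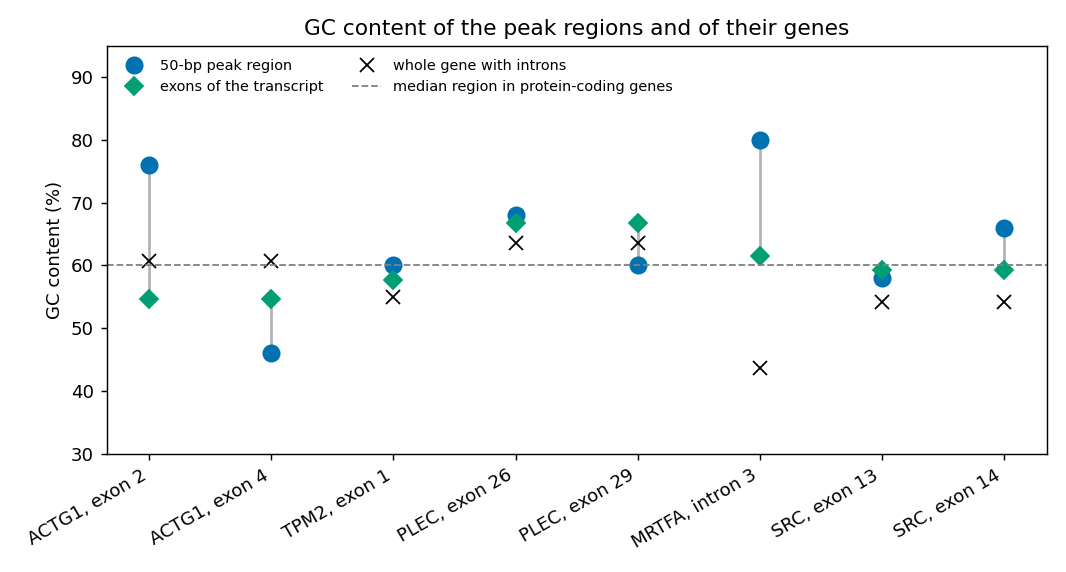
GC content in percent (vertical axis) of each of the 8 peak regions (blue circles), of the exons of its transcript (green diamonds) and of its whole gene with introns (crosses). The dashed line is the median of 60% over positions in protein-coding genes. MRTFA (80%) and ACTG1 exon 2 (76%) stand far above their exons, and ACTG1 exon 4 (46%) is below its exons.

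The regions differed in how far their sequence recurs in the genome. Each was searched with 50 bp on either side, and alignments of at least 40 bp at 85% identity were counted. MRTFA stood apart, with 17266 alignments on 24 chromosomes, 1530 of them over more than 90% of the 150 bases searched. The 50 bases of its peak alone had 5 identical copies elsewhere. Whether the tags at this position came from MRTFA was not tested. The other 7 windows had from 0 (PLEC exon 26) to 26 alignments (ACTG1 exon 4), none over more than 90% of the window. Of their 50-base peaks alone, SRC exon 13 had 1 alignment over more than 90%, to FGR (93.9% over 49 bp), and no identical copy. The alignment of TPM2 was to its relative TPM4 (85.2% over 108 bp). Those of SRC reached the related kinases FGR (87.8% over 131 bp, exon 13) and FYN (88.9% over 63 bp, exon 14), and one of the 2 for ACTG1 exon 2 lay at the pseudogene ACTG1P12 (85.7% over 70 bp). None of the 8 regions aligned to a structural RNA gene.

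The rest of the pathway was read from a list of 95 genes of the actin cytoskeleton and adhesion, grouped by role. Peaks of either strand lay on 9 of the 95 (9.47%), 2 in replicate 1 and 8 in replicate 2. Over all 20046 protein-coding genes a peak lay on 0.459%, with 0.234% in replicate 1 and 0.304% in replicate 2. Since the 5 genes were chosen by their peaks, the list without them is also given, with 4 of 90 (4.44%, 1.74 to 10.9). The list itself was made with earlier results of these lists in view. Neither share, nor the interval, is therefore a test against all protein-coding genes. On the strand of the gene only, 5 of the 95 had a peak, and 4 of these were among the 5 genes. A peak list gives no expression level, so that the part of RNA abundance in these shares was not tested. The actin isoforms had 2 of 6 (ACTB and ACTG1), tropomyosins and tropomodulins 1 of 6 (TPM2), genes of nucleation and turnover 2 of 20 (PFN1 and TMSB10), and plakins, keratins and other linkers 2 of 17 (PLEC and KRT8). Integrins and focal adhesions had 1 of 17 (SRC). None of the 14 bundlers and crosslinkers, FSCN1, the actinins and the filamins among them, and none of the 6 genes of nonmuscle myosin II had a peak. FSCN1 itself (ENSG00000075618.18, chromosome 7, 5592816 to 5606655, plus strand) had 0 peaks in either list.

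The 4 further genes had their peaks in replicate 2 and, apart from 1 peak on PFN1, on the strand opposite to the gene. ACTB, which encodes β-actin, had 9 tags (4.12 to 17.1, p-value 1.38e-08) on the opposite strand at chromosome 7, 5529151 to 5529200. The region ended in 10 bases of intron after 40 bases of exon 3. Like the peaks at exons 2 and 4 of ACTG1, this peak lay on the opposite strand across the 5′ end of an intron. So did 1 peak of PFN1. Over all protein-coding genes, 53.6% of the peaks lay along the gene and 51.6% of the positions contained a boundary. The actin peaks all came from replicate 2. How often both traits meet over all genes was not counted, so that nothing particular to actin genes can be read from them. PFN1, which encodes the monomer-binding protein profilin, had 8 tags on the opposite strand and 6 on its own at chromosome 17, 4946601 to 4946650, across the end of exon 2 with 23 exon bases. TMSB10 encodes a thymosin that sequesters monomers, and its peak had 8 tags at chromosome 2, 84906351 to 84906400, on the strand opposite to it. The authors assigned that peak to an intron of TRABD2A, which overlaps TMSB10 on the other strand, so that its gene is uncertain. KRT8, a keratin of simple epithelia, had 7 tags inside exon 2 of 8, at chromosome 12, 52901951 to 52902000. Of 10 marker genes of A549, 3 had a peak (KRT8, AKR1B10 and ALDH1A1), all in replicate 2, which does not test the identity of the cells.

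**Figure D5:**
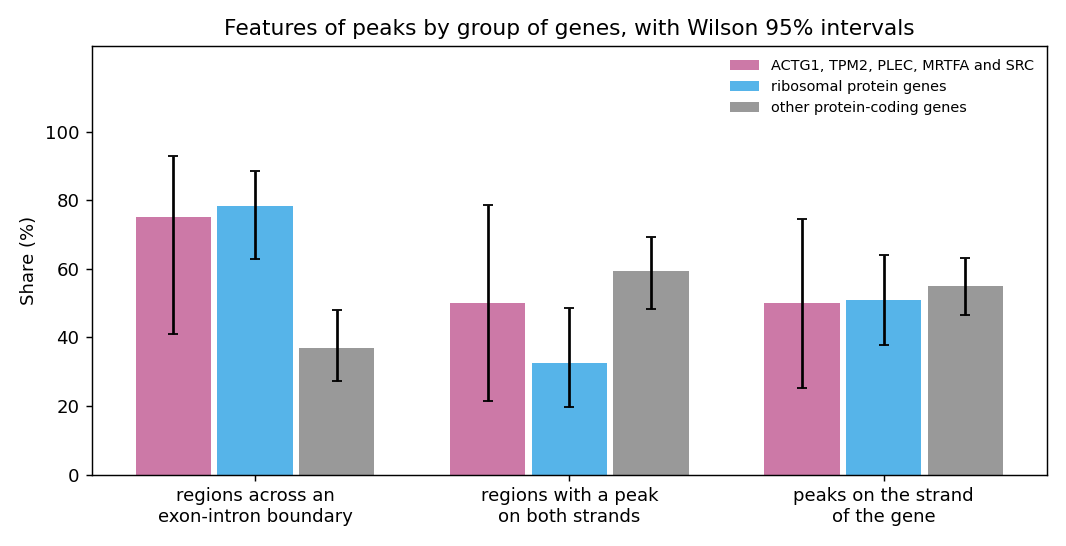
Share in percent (vertical axis) of positions across an exon-intron boundary, of positions with a peak on both strands and of peaks on the strand of the gene, with Wilson 95% intervals. Bars are the 5 genes ACTG1, TPM2, PLEC, MRTFA and SRC, the 17 ribosomal protein genes and the 63 other protein-coding genes with a peak. The 5 genes have 75%, 50% and 50%, with intervals that overlap those of the other groups in each feature.

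The study's own lists that join peak genes to genes with regulated splicing hold the 5 genes in different places. MRTFA and SRC stand in the overlap of peak genes and genes with regulated splicing. ACTG1 and PLEC stand there as peak genes without regulated splicing, and TPM2 stands among the genes with regulated splicing but not among the peak genes, although replicate 1 had peaks on both of its strands. FSCN1 is among the peak genes of the study and had none in the lists analysed here. The places given are those of the splicing lists only. Only membership was read from them, so that a gene's place there need not refer to the peaks described here. The study's lists for differential expression place some of the 5 genes otherwise, and they were not used here because their table was held in part. The splicing data do not belong to the files analysed here.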

How the data were processed

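The deposited files were a peak list for each IP replicate. Per the study's methods, the authors used HISAT2 on GRCh38, retained reads with a unique place after removal of PCR copies, and ran the peak callers ABLIRC and Piranha. Which caller made these lists is not stated. The signal (mean tags per 50-bp bin) and the p-value of each region are as the authors deposited them, unscaled to library size. The depth of the libraries is unknown.

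Peaks were assigned to genes by overlap of at least 1 bp or by the authors' gene identifier, on either strand. GENCODE 44 (MANE Select transcripts) was used, a later release than the one stated in the methods, and all 121 identifiers were found in it. Coordinates count from 1. The genes described are the 5 members with all their peaks, FSCN1, and each gene of the 95-gene list with a peak. The count of 1 group of that list and 3 of the 8 peak sequences are not reported here. The members and lists were chosen with earlier results of these data known. No hypothesis test was made, as the 2 replicates are of 1 condition. Intervals are exact Poisson for tags and Wilson or, at 0, exact for shares. Alternatives were the gene assignment, strand, stricter peaks, the GC reference and each replicate left out. The step that finds exon-intron boundaries was tested on simulated regions, placed on boundaries or wholly in introns of annotated transcripts. The other counting steps were not tested in this way. Tools were Python 3.11.15, pandas 2.3.3, numpy 2.4.6, scipy 1.17.1, pysam 0.24.0, matplotlib 3.10.9 and blastn 2.17.0.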

Additional observations from a re-analysis of the deposited data

How the results depend on the processing

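The peaks of the 5 genes were few, and most were at or below the median of their list. Of 36 alternatives, 21 left the value within 1.5 times (counts) or within the spread between replicates (percentages), 14 moved it further and 1 reversed it, and the cause of these changes was not tested. With peaks above the median of the list, 1 peak remained in each replicate (from 4 and 8), no gene had a peak in both replicates (from 1), 0% of the peaks lay on the strand of the gene (from 50%), 3 of the 95 listed genes had a peak (from 9), and 2 positions contained a boundary (from 6). On the strand of the gene only, 2 and 4 peaks and 5 listed genes were left. With a p-value under 0.001, 5 peaks of replicate 2 were left, but this removed only plus-strand peaks at the minimum of the list and kept minus-strand peaks of equal tags. With each position counted once, 2 peaks of replicate 1 were left. Leaving out a replicate gave 2 to 4 of the 5 genes, 2 to 8 of the listed genes, 2 to 4 positions with a boundary, and 50% of peaks on the strand of the gene. The mean GC difference to the exons was 4.16 percentage points, 6.30 without replicate 1 and -2.27, the other direction, without replicate 2. It was 7.35 against whole genes and 6.07 in wider windows. Positions shared between replicates stayed at 0 in both alternatives. The alternatives for the boundary were chosen after seeing the data. No paired analysis was possible because only the lists of the 2 IPs were analysed here, which leaves 1 group, and no result comes from a test.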
